A study of Caenorhabditis elegans with 28 samples.

Results

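Recurrent autosomal LAG-1 regions without a Notch peak are stretches of the 5 Caenorhabditis elegans autosomes that were precipitated with tagged LAG-1 in at least 3 of 4 libraries and were called in none of the 4 Notch libraries and none of the 6 tagged GFP control libraries. The peaks of all 14 immunoprecipitates were merged wherever they overlapped by at least 1 bp, which gave 24961 regions, 20839 of them on autosomes. Of these, 272 met the rule, or 1.31% of the autosomal regions. They made up 10.2% of the 2675 autosomal regions with any LAG-1 peak and 59.3% of the 459 called in 3 or 4 LAG-1 libraries. The regions were chosen by the presence of called peaks in these same lists, so the shares and the peak strengths below are descriptions.

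LAG-1 is the C. elegans member of the CSL family of DNA-binding proteins. When a Notch receptor such as GLP-1 is activated, its intracellular domain is released, enters the nucleus and joins LAG-1 on DNA with a coactivator to switch on target genes. In the germline this pathway keeps stem cells from entering meiosis, and LAG-1 also serves the second worm Notch receptor, LIN-12, in somatic tissues. CSL proteins are known to contact DNA without the intracellular domain as well, in some settings together with corepressors.

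All libraries came from crosslinked whole L4 larvae grown at 20 °C, so germline and somatic nuclei were mixed. LAG-1 carried its tag at the N-terminal end (strain pJK1689, 4 libraries a, b, c and e), GLP-1 at the C-terminal end (strain pJK1662, the 4 Notch libraries a to d), and the controls were worms with Flag- and Myc-tagged GFP (strain pJK1728, 3 libraries titled Flag and 3 titled Myc). The labels name a Myc antibody for LAG-1 and Notch samples and a Flag antibody for all controls, those titled Myc included, so which control matches the LAG-1 precipitation is unclear. No genotype beyond the strain names was used, and no group of replicates is stated to share a culture.

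The LAG-1 lists were called from 18.6, 19.8, 11.2 and 9.37 M tags and held 441, 1296, 967 and 1650 autosomal peaks in a, b, c and e. Notch lists held 40 to 6898 autosomal peaks from 4.58 to 14.9 M tags, and control lists 39 to 6736 from 3.13 to 16.8 M tags. Notch c, Myc control a and Myc control c stood apart with 6898, 6736 and 4842 autosomal peaks. Positions are those of the deposited lists on build ce10, and no gene is assigned to them. A missing peak means that no peak passed the authors' calling thresholds, a 4-fold excess over the library's own input among them, and not that the protein was absent.

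The 459 recurrent regions fell into 4 classes. Besides the 272, a peak was called in at least 1 Notch library but no control at 60, in a control but no Notch library at 88, and in both at 39. Notch c had a peak at 15.3% of the 459 regions, Notch a at 6.75%, Notch d at 4.36% and Notch b at 3.92%. Myc control a had a peak at 18.1% of them and Myc control c at 12.9%, Flag controls at 0.218% to 2.83% and Myc control d at 0.218%. The 3 longest lists thus held the most peaks at recurrent LAG-1 regions, 2 of them being controls. Leaving out these 3 lists raised the number of regions meeting the rule from 272 to 398.

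At 120 of the 459 regions a single Notch or control library kept the region from meeting the rule. That library was Myc control a for 44 regions, Notch c for 36, Myc control c for 24 and another list for the remaining 16. The peak responsible had a fold over input of 4 to 16.1 with a median of 4.96. Among those with the lowest such fold are I from 8426705 to 8427081, with a Myc control c peak at a fold of 4, and V from 8348889 to 8349236, with a Notch c peak at 4.03 beside peaks in all 4 LAG-1 libraries. Just inside the rule, the weakest of the 3 LAG-1 peaks had a fold of 4.01 at I from 9669072 to 9669407 and 4.02 at V from 13819012 to 13819347. On the side of too few LAG-1 libraries, 408 autosomal regions had peaks in exactly 2 LAG-1 libraries and nowhere else. These included III from 9616869 to 9617223, with a mean fold of 21.1 in LAG-1 a and e, and II from 11534767 to 11535105, with 17.4 in b and e.

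Of the 272 regions, 86 had a peak in all 4 LAG-1 libraries and 186 in 3. The commonest set was LAG-1 a, b and e, with 124 regions, followed by b, c and e with 54, while the sets a, b, c and a, c, e each held 4. LAG-1 b and LAG-1 e therefore had a peak at 98.5% of the regions each, LAG-1 a at 80.1% and LAG-1 c at 54.4%. Over all recurrent autosomal LAG-1 regions the shares were 98.3% in b, 99.1% in e, 82.8% in a and 59.9% in c. These recurrent regions include the 272 themselves. Among the others, LAG-1 c had a peak at 35 of 60 regions with a Notch but no control peak. It had one at 62 of 88 with a control but no Notch peak and at 30 of 39 with both. LAG-1 c had the fewest peaks of the 4 libraries in each of these classes, so its last place is not particular to the 272 regions. Its share was nevertheless lower in the 272 regions than in any of these classes. Seen from the lists, the 272 regions took 49.4% of the autosomal peaks of LAG-1 a, the shortest list. They took 20.7% of those of b, 15.3% of c and 16.2% of e. The library most often missing was not the shortest list but LAG-1 c, whose median fold was the lowest of the 4.

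**Figure D1:**
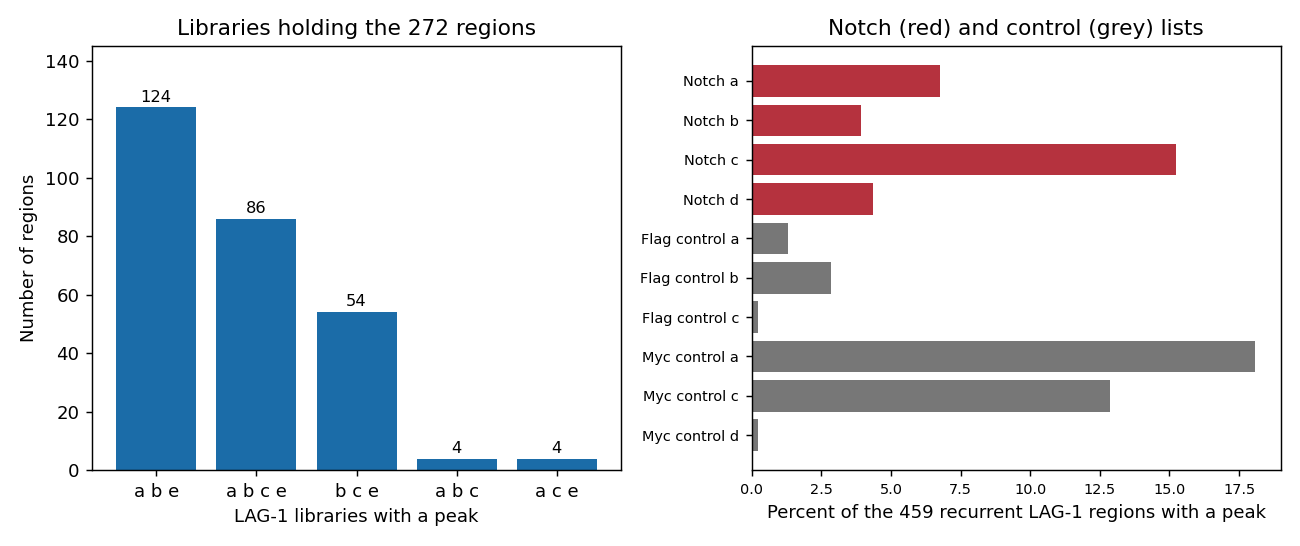
Left, bars give the number of the 272 regions for each set of LAG-1 libraries that had a peak, from 124 in a, b and e to 4 in the rarest sets. Right, bars give the percent of the 459 recurrent autosomal LAG-1 regions with a peak in each Notch list (red) and control list (grey), where the longest lists, Myc control a, Notch c and Myc control c, reach furthest.

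The regions were ranked by the number of LAG-1 libraries and then by the mean rank of their fold within each list. Folds over input are the authors' values for each peak, each library against its own input, so a fold places a peak within its list. LAG-1 a and b were scaled to input and the others the opposite way. Region 1, III from 9793659 to 9794000, had folds of 55.9, 54.5, 27.2 and 52.8 in a, b, c and e. Its tag counts per 10 M tags were 1039, 1669, 849 and 2126 in the same order, the highest of all 272 regions in every library. The centres of its 4 peaks lay within 21 bp, and its mean focus ratio was 0.877, also the highest of the 272. The focus ratio is the share of tags whose strand fits their position left or right of the centre, and it is high at sharp, single peaks.

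Region 2, III from 6344658 to 6345024, had folds of 12.9, 22.6, 17.8 and 33.4 in a, b, c and e and tag counts of 657, 1224, 711 and 1195 per 10 M. Region 3, I from 11977817 to 11978147, had folds of 11.3, 20.7, 13.4 and 30.8, and its peaks were centred within 12 bp of each other. In both regions LAG-1 e was highest and LAG-1 a lowest. Region 4, V from 15184084 to 15184421, had folds of 13.7, 15.1, 9.06 and 26.4 and peaks centred within 9 bp. Region 5, II from 13521171 to 13521542, had 10.7, 13.8, 12 and 31.6 (17.0 ± 9.79, SD, n = 4). Chromosome V also held region 6, from 8413570 to 8413926, with folds of 12.7, 17.8, 7.61 and 24.2, and region 7, from 9439709 to 9440121, with 12.1, 11.6, 10.6 and 27.4. Only 3 of the 272 regions had a mean fold of at least 20, so region 1 stood well above the rest.

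Regions 8 to 25 had mean folds of 9.59 to 16.4. Region 9, III from 5172435 to 5172813, had folds of 14.5, 21.8, 5.58 and 23.8, and region 11, IV from 3313322 to 3313921, had 10.1, 9.67, 6.78 and 30.7. Region 10, V from 9549420 to 9549766, had 14, 12, 7.40 and 16.2 (12.4 ± 3.76, SD, n = 4). In 23 of the first 25 regions the highest fold was that of LAG-1 e, and in 16 the lowest was that of LAG-1 c. At 13 of the 25 every library reached a fold of at least 6. A Notch or control peak lay within 1 kb of 7 of the 25, the nearest at 78 bp from region 23, V from 11979845 to 11980246, in Myc control a.

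**Figure D2:**
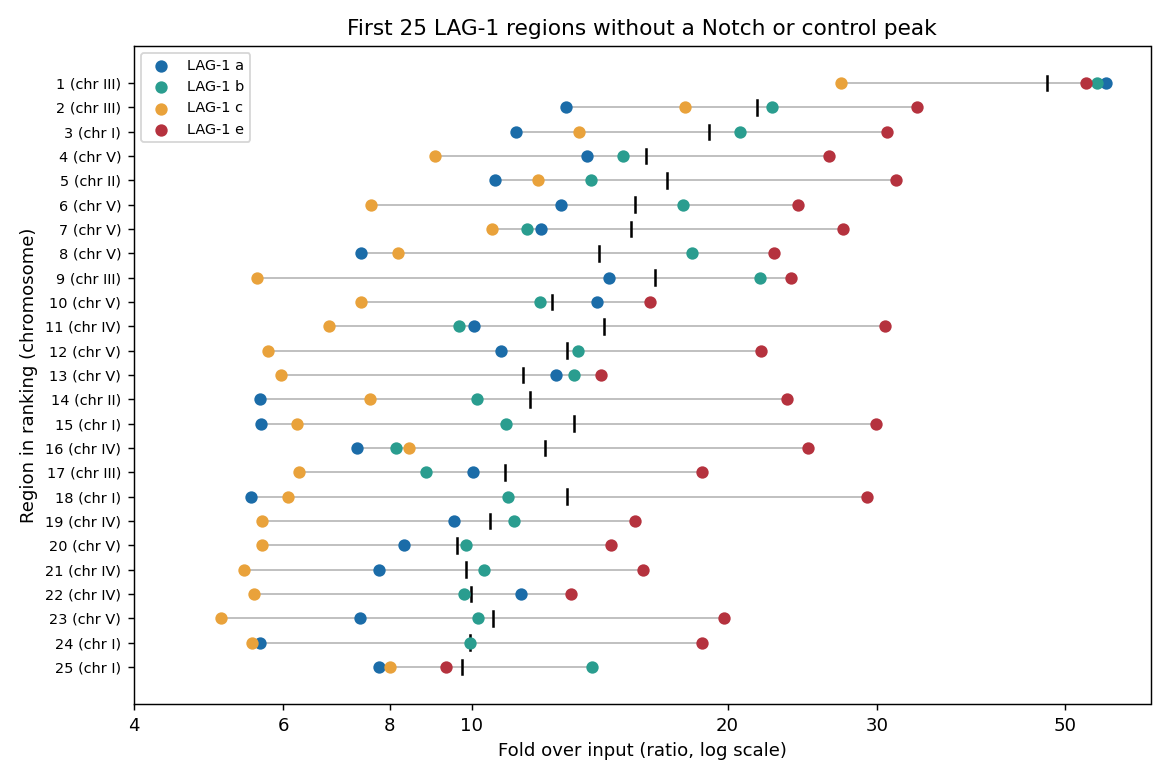
Each row is 1 of the first 25 regions with its chromosome, dots are the fold over input in LAG-1 a, b, c and e on a log axis, and black ticks are means. Region 1 has 3 dots above 50 and LAG-1 c at 27.2, and in 23 of 25 rows the rightmost dot is LAG-1 e.

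Some regions absent from 1 library were as strong elsewhere as the leading ones. Region 87, I from 9512173 to 9512575, had folds of 21.5, 21.8 and 20.1 in a, b and e (21.1 ± 0.929, SD, n = 3) and no peak in LAG-1 c. Region 93, IV from 6097047 to 6097383, had 6.64, 21.8 and 22.6 in a, b and e. Region 103, I from 3866468 to 3866800, lacked a peak in LAG-1 a and had 10.2, 5.43 and 17.6 in b, c and e. The first region without LAG-1 b was region 100, II from 14155466 to 14155819, with 5.60, 9.02 and 15.6 in a, c and e, and the first without LAG-1 e was region 107, I from 9163316 to 9163716, with 6.62, 9.16 and 5.65 in a, b and c.

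The mean fold of a region is taken over the libraries with a peak, so regions missing from different libraries are averaged over different lists. Across all 272 regions it ranged from 4.23 to 47.6 with a median of 7.81, and the quartiles were 6.47 and 9.49. The mean fold was at least 10 at 54 regions, between 5 and 10 at 209 and below 5 at 9. At 132 regions at least 1 library had a fold under 5, close to the limit of the caller. Median folds by library were 6.20 in a, 7.19 in b, 5.21 in c and 10.4 in e, and median tag counts were 184, 242, 170 and 332 per 10 M tags. Most of these regions were therefore of moderate strength. LAG-1 e gave the highest medians on both scales, as it did over all autosomal peaks, with 7.40 by fold and 244.5 tags per 10 M. LAG-1 c likewise had the lowest medians on both scales in both sets, so the places of e and c are not particular to these regions. By fold, LAG-1 a stood above b over all autosomal peaks, at 6.56 against 6.19, but below b in the 272 regions.

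Within each list the regions took different places. Their median percentile by fold, with 100 as the strongest peak of the list, was 69.4 in LAG-1 b, 67.7 in c and 75.1 in e but 46.1 in a. The strongest 10% of peaks held 16.0%, 18.2% and 24.6% of the regions' peaks in b, c and e and 4.59% in a. In LAG-1 a the regions' median fold of 6.20 lay under the 6.56 of all autosomal peaks of that list, whereas in b, c and e it lay above the corresponding 6.19, 4.80 and 7.40. Only 26 of the 272 regions were in the upper 25% of every list in which they had a peak, and 81 in the upper 50%.

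The regions with a Notch peak and no control peak had higher median folds in every LAG-1 library, at 7.52, 8.16, 5.78 and 10.9 in a, b, c and e. The regions with a control peak and no Notch peak stood at 6.79, 8.56, 5.46 and 12.8, and those with both at 9.25, 10.2, 6.38 and 16.4. The regions in only 2 LAG-1 libraries stood lower, at 5.61, 5.52, 4.99 and 7.06. The regions without Notch or control peaks lay in between in all 4 lists. A share of 31.6% of them had a peak in all 4 LAG-1 libraries (exact Clopper-Pearson 95% interval 26.1 to 37.5). It was 41.7% (29.1 to 55.1) with a Notch peak only, 54.5% (43.6 to 65.2) with a control peak only and 64.1% (47.2 to 78.8) with both. A higher fold and recurrence were thus seen beside control peaks as well as beside Notch peaks. These intervals cover counting error only.

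**Figure D3:**
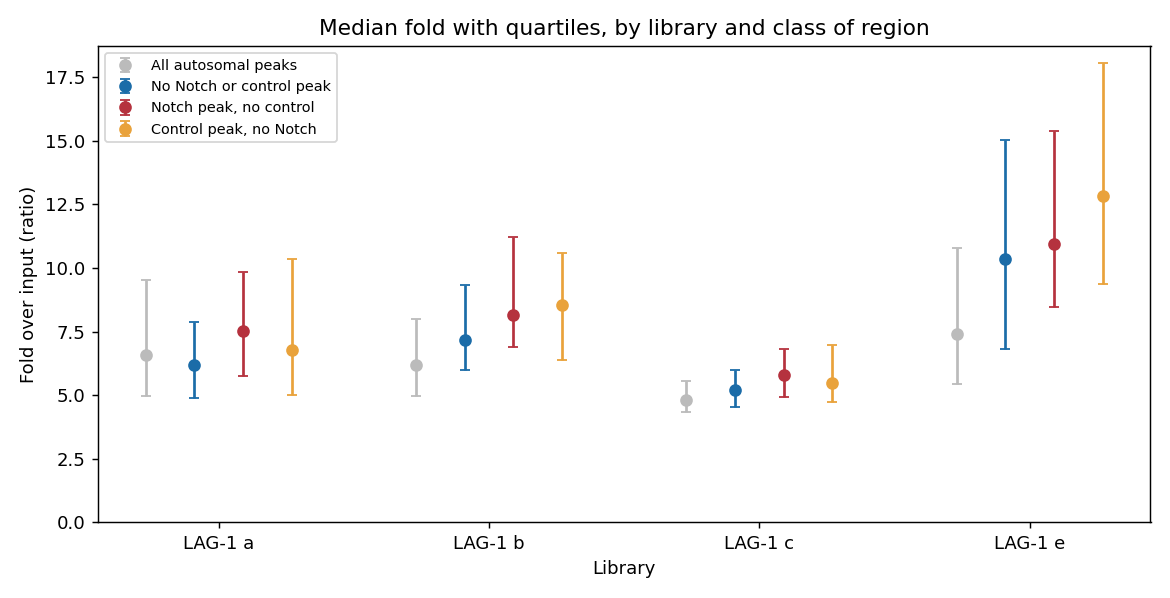
Points are the median fold over input and bars the lower and upper quartile in each LAG-1 library, for all autosomal peaks, the 272 regions and the recurrent regions with a Notch or a control peak. In every library the blue point of the 272 regions, such as 10.4 in LAG-1 e, lies below the red point of those with a Notch peak, 10.9 in LAG-1 e.

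Since the same lists chose the regions, strength and recurrence were also measured in a library that took no part in the choice. Each LAG-1 library was held out in turn, and regions with a peak in all 3 others and in no control were split by the presence of a Notch peak. Without a Notch peak, 61.4% of 140 regions had a peak in held-out LAG-1 a, 95.6% of 90 in b, 41.0% of 210 in c and 95.6% of 91 in e. With a Notch peak the shares were 73.5% of 34, 96.2% of 26, 50% of 50 and 100% of 26. The regions found numbered 86, 86, 86 and 87 without a Notch peak and 25, 25, 25 and 26 with one. They are nearly the regions called in all 4 LAG-1 libraries, so the shares largely regroup the presence counts above. The 4 rounds are therefore not independent of each other. The share was lower without a Notch peak in 4 of 4 libraries, by 6.54 ± 5.07 percentage points on average (SD, n = 4). This is the smallest p that an exact two-sided sign-flip permutation over 4 libraries can give (p = 0.13, adjusted p = 0.188 over 3 tests), so the test could not pass 0.05. The difference was -13.5 points with a fold of at least 6 in every list (exact permutation p = 0.25), where it was not below 0 in every library, and -4.01 without LAG-1 a. With control peaks allowed in the regions with a Notch peak it was -10.4 points. Regions with a control peak only were not held out, so whether the difference is particular to Notch peaks was not tested.

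The held-out peaks of regions without a Notch peak had median fold percentiles of 53.3, 82.1, 74.9 and 85.8 in a, b, c and e. Those of regions with a Notch peak had 75.7, 89.3, 86.7 and 88.2. The regions without a Notch peak again lay lower in 4 of 4 lists, by 11.0 ± 8.60 percentile points (SD, n = 4), at the smallest p the exact permutation test allows (p = 0.13, adjusted p = 0.188). These percentiles cover only the regions found, which are nearly those called in all 4 LAG-1 libraries. The percentiles therefore describe peaks already counted above and are no separate readout of strength. Most such peaks of regions without a Notch peak lay in the upper 50% of the list, LAG-1 a being near its middle. The difference was -4.08 points when ranked by tag count in place of fold (exact permutation p = 0.25) and -3.55 points with a fold of at least 6 (exact permutation p = 0.375), and in neither was it below 0 in every library.

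The 272 regions were short. They spanned 330 to 763 bp with a median of 382 bp, against single peaks of 291 to 331 bp set by the authors' caller for the 4 libraries, so most were little wider than 1 peak. The centres of a region's peaks spread over 5 to 440 bp with a median of 60, and at 110 regions they lay within 50 bp. LAG-1 a, b and e agreed most closely, with median distances between centres of 23.5 bp for a and b, 25 bp for b and e and 30 bp for a and e. Peaks of LAG-1 c lay 52 bp from those of a and of b and 64 bp from those of e. LAG-1 c had a fragment length of 156 bp, against 216, 238 and 266 bp in a, b and e, and the part of this in the distances was not tested.

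The longest region was III from 11289884 to 11290647, where the peaks of LAG-1 b, c and e spread over 440 bp with folds of 4.86, 5.80 and 4.72. Next were IV from 16592652 to 16593320, 668 bp long with folds of 9.11, 12.6, 6.79 and 7.93 and the lowest mean focus ratio of the 272, 0.587, and IV from 9000934 to 9001580 at 646 bp. The shortest, at 330 bp each, were region 3 on I, IV from 6480972 to 6481302 and II from 15076727 to 15077057. In these short regions the peak centres lay within 12, 6 and 5 bp. Over all 272 the mean focus ratio had a median of 0.760. The share of peaks with a focus ratio of at least 0.7 was 73.4%, 81.3%, 74.3% and 84.0% in a, b, c and e, beside 68.3%, 74.5%, 76.0% and 75.1% of all autosomal peaks of these lists.

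Folds of different libraries ran in parallel across the regions to a moderate degree. Spearman's rho between the folds of 2 libraries was 0.453 for b and e over 264 regions, 0.449 for c and e over 144, 0.444 for b and c over 144 and 0.404 for a and b over 214. It was 0.294 for a and e over 214 regions and 0.187 for a and c over 94. These are correlations across regions chosen for having peaks in both lists, which are no independent replicates and share the caller's lower limit, so they are given as a description. LAG-1 e had the higher fold in 93.8% of the regions it shared with LAG-1 c, with a median ratio of 2.16. Over all autosomal peaks the median fold was also higher in e, at 7.40 against 4.80 in c. Among the 86 regions in all 4 libraries, e had the highest fold at 67 and c the lowest at 48.

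The regions were spread over all 5 autosomes. Chromosome I held 65, III 59, IV 56, II 50 and V 42, which is 4.32, 4.28, 3.20, 3.27 and 2.01 per Mb of covered length. Chromosome V, which makes up 25.4% of that length and 19.9% of all autosomal regions with a LAG-1 peak, held 15.4% of the 272 (exact 95% interval 11.4 to 20.3, counting error only). Chromosome I held 23.9% (19.0 to 29.4), with 18.2% of the length and 19.6% of the regions with a LAG-1 peak. Although V had the fewest, 9 of the first 25 regions were on it, beside 5 each on I and IV, 4 on III and 2 on II. Of the 42 regions of V, 20 had a peak in all 4 libraries, against 9 of 50 on II.

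**Figure D4:**
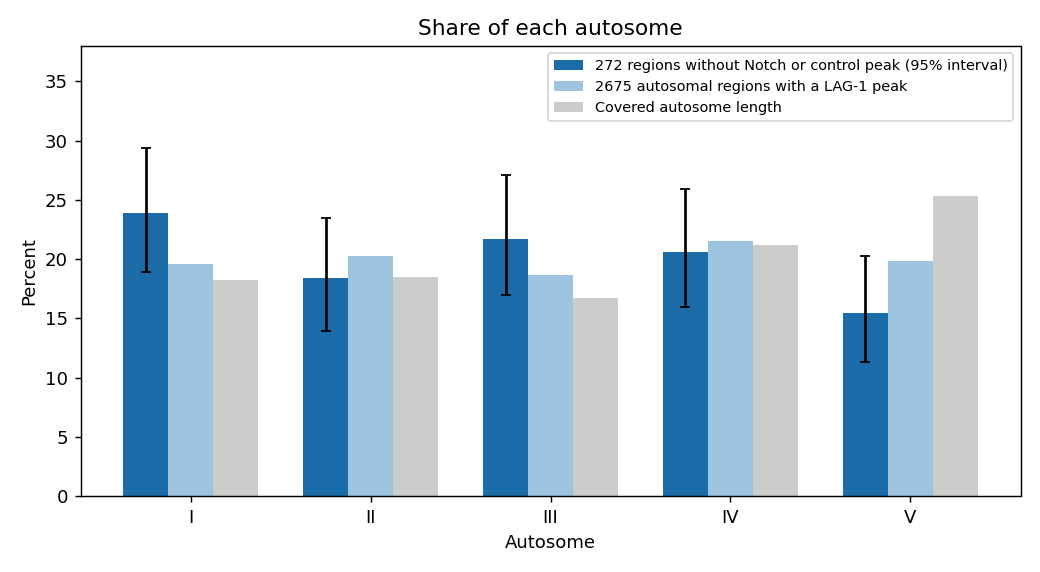
Bars give the percent of the 272 regions on each autosome with exact 95% binomial intervals, beside the percent of all 2675 autosomal regions with a LAG-1 peak and of the covered length. Chromosome V holds 15.4% of the regions and 25.4% of the length.

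C. elegans autosomes have a gene-dense centre flanked by arms richer in repeats. The middle 50% of the autosomes held 148 of the 272 regions, or 54.4% (exact 95% interval 48.3 to 60.4). It held 44.0% to 55.5% of the autosomal regions of the 4 LAG-1 lists, with a mean of 51.0% ± 5.40 (SD, n = 4), so the 272 lay within the range of the lists they came from. Recurrent regions with a Notch peak and no control peak had 38.3% there (26.1 to 51.8), and Notch lists 39.9% ± 3.93 (SD, n = 4). Control lists had 43.9% ± 15.0 (SD, n = 6), from 27.0% to 69.2%, a range that spans the Notch lists. Recurrent regions with a control peak only had 51.1% (40.2 to 61.9), and those with both 56.4% (39.6 to 72.2). For the 272 regions the share in the middle 50% was 71.4% on V and 60.7% on IV, and 47.7%, 48.0% and 49.2% on I, II and III. Middle and ends of a chromosome were taken from the highest peak end in any list.

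Neighbouring regions were mostly far apart, with a median gap of 177 kb over 267 gaps, and 5 gaps were at most 5 kb. The closest pair, II from 14154314 to 14154653 and from 14155466 to 14155819, was 813 bp apart. The first had folds of 6.07, 7.91 and 12.6 in a, b and e and the second is region 100, which lacked LAG-1 b. The next pair was V from 9546826 to 9547216 and region 10, with 2204 bp between them. At the left end of chromosome I, 3 regions lay within 25 kb of the first base, from 3561 to 4043, from 16844 to 17195 and from 22168 to 22506. The outermost had folds of 4.70, 8.41, 7.31 and 16.8 in a, b, c and e. None of the 272 lay within 25 kb of another chromosome end. Of all 2675 autosomal regions with a LAG-1 peak, 12 lay within 25 kb of any end, so these 3 regions make up 1.10% of the 272 beside 0.449% of the 2675. In wider windows the shares lay closer, at 1.47% beside 1.01% within 100 kb and 5.88% beside 5.38% within 500 kb.

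The rule bars a Notch peak that touches a region but not one beside it. The nearest Notch peak was 7 bp to 31.9 kb away, with a median of 3811 bp, and the nearest control peak 22 bp to 17.4 kb away, with a median of 2390 bp. These distances pool the 4 Notch lists and the 6 control lists and were not adjusted for their unlike numbers of peaks. A Notch peak lay within 1 kb of 44 regions, or 16.2%, beside 18.5% of the 2011 autosomal regions with a LAG-1 peak and no Notch or control peak. A control peak lay within 1 kb of 69 regions, or 25.4%, beside 27.3% of the same 2011. Both shares were near that background, which includes the 272 regions themselves. The closest Notch peaks were those of Notch a beside V from 4175626 to 4175980, at 7 bp, Notch c beside I from 2514076 to 2514474, at 24 bp, and Notch a beside I from 3198841 to 3199212, at 39 bp. At these regions the LAG-1 folds were 5.66, 4.58, 4.72 and 11.0 in a, b, c and e, then 5.73, 4.11 and 12.2 in b, c and e, then 8.04, 6.81 and 11.0 in a, b and e.

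Neighbouring peaks were then compared between Notch and control libraries. The rule did not use peaks beside a region, but it used the same lists to bar every region that their peaks touched. The measure is therefore not independent of the rule. Of the autosomal peaks, 1.36% in Notch a, 0 in Notch b, 0.536% in Notch c and 0.386% in Notch d lay within 1 kb of one of the 272 regions without touching it. In the Flag controls a, b and c these shares were 0.901%, 0 and 0, and in the Myc controls a, c and d 0.624%, 0.702% and 0. The groups overlapped, with means of 0.570% ± 0.572 (SD, n = 4) for Notch and 0.371% ± 0.416 (SD, n = 6) for the controls. The difference of 0.199 points did not pass the exact two-sided permutation test (p = 0.529, adjusted p = 0.529), and it was -0.0789 without Notch a and 0.913 without Myc control a. The lists of 0 held 39 to 105 autosomal peaks, so a single peak would have moved their share by more than either group mean.

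**Figure D5:**
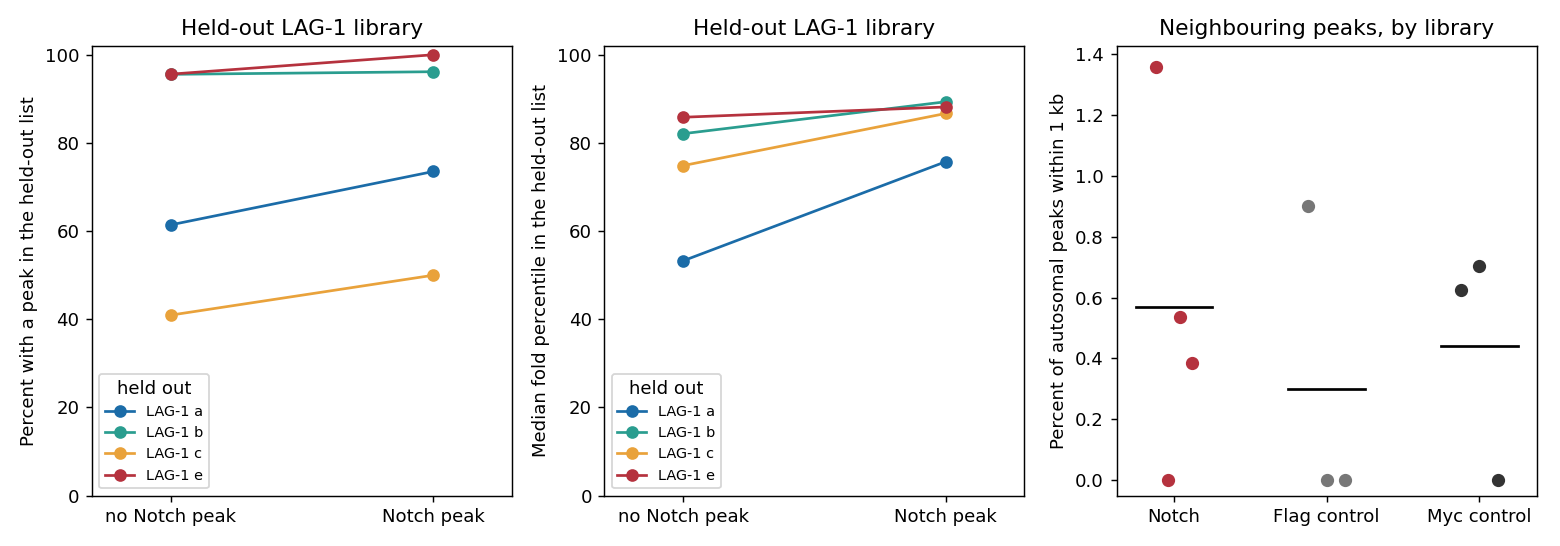
Left and middle, lines join regions without and with a Notch peak for each held-out LAG-1 library, as percent of regions with a peak in that library and as median fold percentile in its list. All 8 lines rise towards regions with a Notch peak. Right, dots are the percent of each list's autosomal peaks within 1 kb of the 272 regions and lines are group means of Notch, Flag and Myc control libraries, which overlap.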

How the data were processed

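The submitters' processing notes name genome build ce10, CASAVA 1.8, and Bowtie and HOMER without a version. Peak calling was by HOMER, per the file headers, for each of the 14 immunoprecipitates against its own input, with at least 4-fold over input and over the surrounding 10 kb, at a false discovery rate of 0.01 for LAG-1 and Notch and 0.001 for controls, so target and control lists were not called alike. Inputs enter only through this calling.

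The deposited normalized tag count is a signal per 10 M tags, and total tags are counts in the deposited lists, except in LAG-1 a and b, where they are scaled. Fold over input and over the local background, and the clonal fold, are deposited ratios. The deposited focus ratio is a fraction. The deposited peak score served a common calling threshold, and the deposited p-values were not used.

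Regions were merged with Python 3.11.15, numpy 2.4.6 and pandas 2.3.3, intervals came from scipy 1.17.1, and merging, neighbour search and exact permutation tests were tested on simulated data. P-values were adjusted over 3 tests by the Benjamini-Hochberg method. They measure the spread between libraries, which the series calls biological replicates. The held-out rounds share most of their found regions and the Notch lists that split them. The p-values and SDs of the held-out differences therefore do not rest on independent replicates. Regions were named by rank (the first 25), by autosome, by missing library, by length, by spacing and by nearness to Notch peaks, and regions 87 and 93, those at the end of chromosome I and those beside the limits of the rule were picked for their values. The rule and the lists were chosen with earlier results of these data known. Replicate letters were not taken as pairs, as nothing says that a letter marks a shared culture. Genes and sequences were not used here, since the gene table at hand is of assembly WBcel235.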

Additional observations from a re-analysis of the deposited data

Results flagged for a closer look

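Of 39 sets of library values, 5 held a library whose gap to the nearest other took most of the range (Dixon's criterion at 95%). Chance flags about 1 in 20 of independent sets, but these sets are not independent. They include the folds of the first 25 regions, over the same 4 libraries that ranked those regions. The number flagged can therefore not be set against that rate. All 5 were folds of leading regions over the 4 LAG-1 libraries. In region 1, III from 9793659, LAG-1 c was low at 27.2. In the other 4 LAG-1 e was high, at 31.55 in region 5, II from 13521171, at 27.35 in region 7, V from 9439709, at 30.69 in region 11, IV from 3313322, and at 24.91 in region 16, IV from 6117755. LAG-1 e also had the highest median fold of the 4 lists, and the part of this in the single values was not tested.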

How the results depend on the processing

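The number of regions, 272, was 175 with a fold of at least 6, 86 with a peak in all 4 LAG-1 libraries, 680 with at least 2 and 7 with the 44 best peaks of every list. Leaving out 1 library gave 90 to 316 regions, with 140, 90, 210 and 91 without LAG-1 a, b, c or e, where all 3 remaining libraries are required. It was 351 against the Flag controls alone, 274 against the Myc controls alone, 284 with merging at 100 bp, 273 at the strictest Poisson threshold and 398 without the 3 lists of over 5000 peaks. The Poisson threshold could only remove listed peaks, and it left 505 of 505, 1533 of 1533, 1083 of 1085 and 1964 of 1965 in LAG-1 a, b, c and e. It therefore could not even out the unlike false discovery rates of target and control lists. The difference in neighbouring peaks, 0.199 points, became -0.0878 with a fold of at least 6, -0.0598 and -0.404 for neighbours within 2 and 5 kb and -0.153 as a percent of the regions, and ranged from -0.0789 to 0.913 on leaving out 1 library. With the replicate letter as a replicate block it was 0.292 (exact permutation p = 0.167). It was 1.44 (exact permutation p = 0.0857) without those 3 lists. The mean held-out differences stayed negative under every setting run, the shares from -13.5 to -4.01 points and the percentiles from -14.2 to -3.55, but the single libraries did not all do so. The shares were not below 0 in every library without Notch c (exact permutation p = 0.375), without the 3 long lists (0.375), with merging at 100 bp (0.25) and with a fold of at least 6 (0.25), nor the percentiles with a fold of at least 6 (0.375) or ranked by tag count (0.25). Lists of 39 to 111 autosomal peaks limit what the Notch and control comparisons can show.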
